A study of Mus musculus with 14 samples.

Results

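Of 14 mice whose cortex was profiled by RNA sequencing, the 6 whose sample titles begin with 119 or 141 were compared with the 8 whose titles begin with 046, 047, 048 or 139. The sets were defined from the data. The authors' own comparison evidently carried the same division as a term, as read from their deposited fold changes (described under processing). In a principal component analysis of log2 CPM (counts scaled to the library's total), the first component (PC1) ran between these prefixes, and the prefixes were chosen on those expression values, so every difference between the sets is given as a description with no test. The animals were C57BL/6J mice of 8 weeks, either heterozygous for a Dnmt3a knockout or wild-type littermates. The knockout allele and the meaning of a title prefix are not described in the sources used here. Each prefix holds both genotypes and a single sex. The 119/141 set held 1 wild-type and 1 heterozygous male of prefix 119, and 2 wild-type and 2 heterozygous females of prefix 141. The other set held, for each genotype, 2 males (prefixes 046 and 048) and 2 females (prefixes 047 and 139). Sex and prefix can therefore not be told apart within the 119/141 set. Each library came from a separate mouse, and replicate numbers only name the animals.

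The cortex is a mixture of excitatory and inhibitory neurons with astrocytes, oligodendrocytes, microglia and vessels, and bulk RNA sums over all of them. Dnmt3a encodes a de novo DNA methyltransferase that methylates the genome of maturing neurons. Several groups of transcripts are known to vary between pieces of brain tissue apart from genotype. Among them are mitochondrial transcripts, ribosomal protein messages, markers of glia and of neighbouring regions, and the immediate early genes, which neurons switch on within minutes of activity. In bulk samples such as these, fewer cells of a type and less RNA per cell cannot be told apart.

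Depth was alike in both sets. The 119/141 animals had 9794201 to 14335406 counts and the others 8951835 to 14206585. Dnmt3a matched the genotype labels in each set. It lay at 131, 146 and 152 CPM in the wild-type and 84.2, 94.4 and 109 CPM in the heterozygous 119/141 animals. In the other set it lay at 123.4 to 164 CPM in the 4 wild-type and 89.7 to 118 CPM in the 4 heterozygous animals, so the genotypes did not overlap in either set. The difference between the sets in Dnmt3a itself was -0.07 on the log2 scale (SE 0.0706). The cortex label was checked against marker lists. Pan-neuronal markers summed to between 5541 and 7986 CPM in every animal, whereas the 7 tested choroid plexus markers summed to at most 13.5 CPM and the 5 tested ependymal markers to at most 17.1 CPM. Striatal markers were present, with sums between 578 and 1494 CPM.

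PC1 took 31.0% of the variance over all 14 animals. The 4 animals of prefix 141 lay at 12.7 to 34.9 on it, the wild types at the far end, and the 2 of prefix 119 at 8.55 (wild type) and -0.23 (heterozygous). The other 8 lay between -21.9 and -7.97. On PC1 the animals closest to each other across the sets were the heterozygous male of prefix 119 and the heterozygous female of prefix 139. With PC2 added, the same male lay nearest to the wild-type male of prefix 048. Among the 7 wild-type animals alone PC1 took 45.0% of the variance, with prefix 141 at 30.1 and 32.9, prefix 119 at 4.98 and the others at -24.6 to -10.7.

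**Figure D1:**
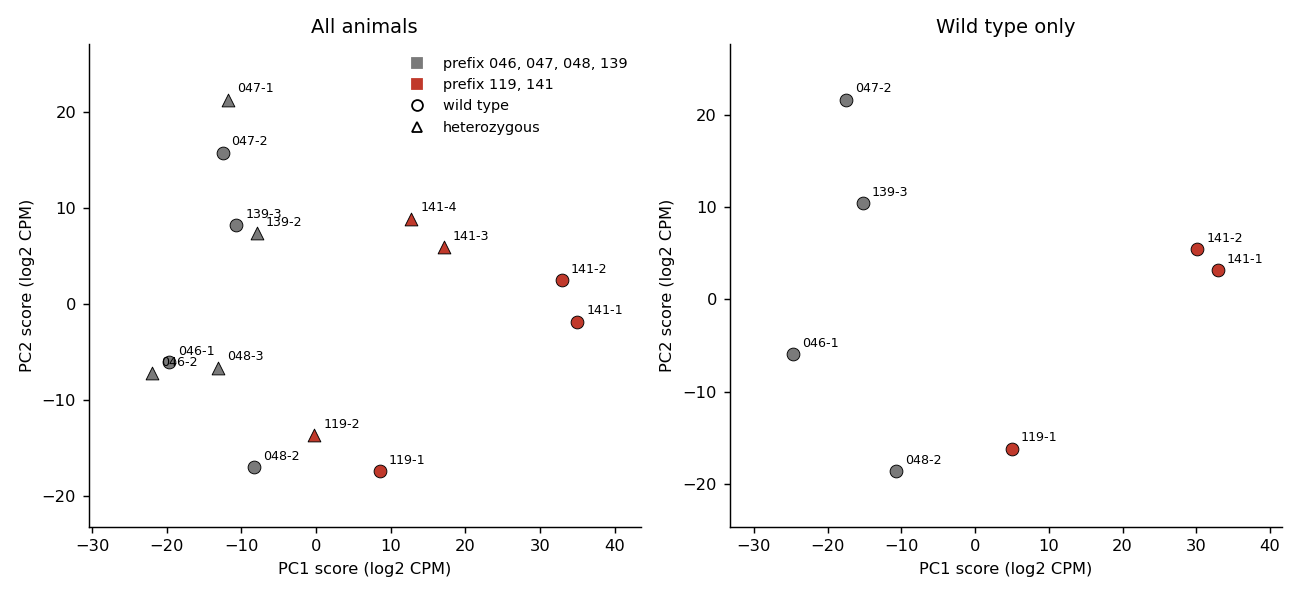
Scores of each animal on the first 2 principal components of log2 CPM (all 14 animals in one panel, the 7 wild types in the other), with 1 point per animal and the animal number beside it. Red marks prefixes 119 and 141 and grey the others, circles mark wild types and triangles heterozygotes. Prefix 141 wild types lie furthest along PC1, and the heterozygote of prefix 119 lies at -0.23, nearest to the other set.

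Across 14241 genes tested with genotype as a term, 2771 (19.5%) were higher and 2726 (19.1%) lower in the 119/141 animals at an adjusted p under 0.05 by edgeR's quasi-likelihood test. Nothing is read from these shares, since the sets were chosen on the same values, and below "higher" and "lower" with a count mean this threshold. The fit took animals of a prefix as independent. The SEs of set differences given here therefore do not measure the spread between prefixes. Most differences were small. The median absolute log2 difference was 0.18, and 39 called genes differed at least 2-fold, 24 higher and 15 lower. The median over all genes was 0.003, against which the list medians below can be read. Counts within a list can be read against the 19.5% and 19.1% of all genes. In 1670 genes (11.7%) the CPM ranges of the sets did not overlap. Without the 4 animals of prefix 141, 816 genes were higher and 843 lower.

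The same comparison within each genotype used separate animals. Among wild types (3 against 4), 2003 genes (14.3%) were higher and 2070 (14.7%) lower of 14038 tested, and the ranges did not overlap in 4800 genes (33.7% of the 14241). Among heterozygotes (3 against 4), 1452 (10.4%) were higher and 1436 (10.3%) lower of 13928. With each animal's GC trend removed, as described below, the heterozygous counts were 425 and 349. Single animals mattered. The wild-type counts were 1189 and 1114 without 141-1, and 1174 and 1129 without 141-2. The heterozygous counts were 690 and 770 without 141-3, 796 and 821 without 141-4, and 889 higher without 046-2. Both fits called 1829 genes, 44.9% of the wild-type and 63.3% of the heterozygous calls, and 1826 of them had the same direction. Over 13830 genes, the wild-type and heterozygous log2 differences had a Pearson r of 0.62 and a Spearman rho of 0.63, and 73.4% had the same sign. Female differences (prefix 141 against 047 and 139) and male differences (119 against 046 and 048) had an r of 0.48 and a rho of 0.55 over 14119 genes. These correlations are across genes, which share libraries, and describe these animals. Both genotypes and both sexes entered the PC1 on which the prefixes were chosen, so shared calls and directions were partly built in.

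Of the lists examined, the messenger RNAs of the mitochondrial genome had the highest median in the 119/141 animals, whereas the mitochondrial ribosomal RNAs were lower there. Mitochondrial DNA encodes subunits of the respiratory chain and the RNAs of the mitochondrial ribosome. The share of counts on the 13 messenger RNAs ran from 1.11% to 1.99% in the 119/141 animals (median 1.53%) and from 0.571% to 0.860% in the others (median 0.684%), with no overlap. Prefix 119 averaged 1.31% and prefix 141 1.74%. All 7 messages that passed the filter were higher, with a median log2 difference of 1.22, and 5 of the 13 symbols were listed at 0 in every animal.

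Among them, mt-Nd6, a complex I subunit encoded on the opposite strand to the other messages, had the largest difference of the genes named by rule. It ran from 131 to 283 CPM (median 219) in the 119/141 animals and from 39.4 to 83.5 CPM (median 61.7) in the others, a log2 difference of 1.86 (SE 0.193). Reads of mt-Nd6 and of transcripts antisense to it cannot be told apart, since the sources used here do not say whether counting used strand. mt-Nd2, another complex I subunit, was at 838 to 1543 CPM against 355 to 595 CPM, a log2 difference of 1.39 (SE 0.165). mt-Co1, a cytochrome oxidase subunit, was at 3886 to 7035 CPM against 2191 to 2983 CPM, a difference of 1.12 (SE 0.105). None of these ranges overlapped, and mt-Nd1 (1.30), mt-Nd5 (1.22), mt-Cytb (1.07) and mt-Nd4 (1.01) showed the same separation.

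The 2 mitochondrial ribosomal RNAs went the other way. They took 1.94% to 4.29% of counts in the 119/141 animals (median 2.89%) and 3.53% to 5.49% in the others (median 4.28%), so the ranges overlapped. mt-Rnr1 differed by -0.69 (SE 0.200) and mt-Rnr2 by -0.55 (SE 0.183) on the log2 scale. In wild types alone the values were -0.36 and -0.24, and in heterozygotes -1.05 and -0.88. The ratio of ribosomal to messenger counts within the mitochondrial genome separated the sets without overlap, at 1.69 to 2.15 in the 119/141 animals (mean 1.91 ± 0.197, SD, n = 6) and 5.62 to 7.52 in the others (mean 6.48 ± 0.577, SD, n = 8).

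**Figure D2:**
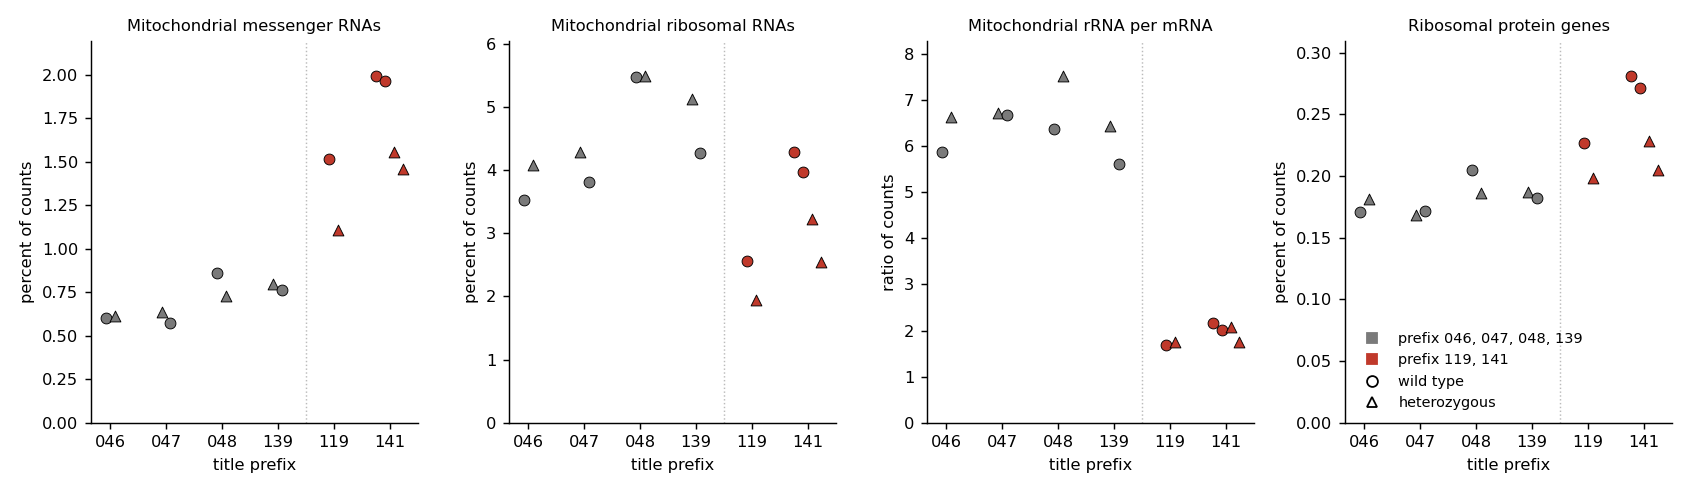
Percent of counts on mitochondrial messenger RNAs, on mitochondrial ribosomal RNAs and on cytosolic ribosomal protein genes, and the ratio of mitochondrial ribosomal to messenger counts, for each animal by title prefix (circles wild type, triangles heterozygous). The ratio lies between 1.69 and 2.15 in the 6 animals of prefixes 119 and 141 and between 5.62 and 7.52 in the other 8.

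Nuclear genes of energy production and protein synthesis were mostly higher as well, by less. Of 74 tested genes of oxidative phosphorylation, which supply the other subunits of the respiratory chain, 38 were higher and 7 lower, with a median log2 difference of 0.22. Ndufa5, a complex I subunit, ran from 19.7 to 27.9 CPM (median 23.8) in the 119/141 animals and from 10.0 to 18.4 CPM (median 13.7) in the others, without overlap. Atp5k, a subunit of ATP synthase, differed by 0.78 (SE 0.124), and its ranges were also apart. Ndufs3, a complex I core subunit, was lower, by -0.32 (SE 0.0706). The median of the list was 0.34 in wild types and 0.06 in heterozygotes.

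Cytosolic ribosomal protein genes took 0.198% to 0.281% of counts in the 119/141 animals (median 0.228%) and 0.169% to 0.205% in the others (median 0.182%), overlapping narrowly. Of 62 tested genes 40 were higher and 0 lower, with a median of 0.40. Rps27a, which encodes a ribosomal protein fused to ubiquitin, lay at 6.57 to 11.8 CPM against 3.11 to 4.43 CPM, a log2 difference of 1.21 (SE 0.123). Rps24 lay at 48.9 to 83.5 CPM against 29.9 to 39.9 CPM (0.82), and Rpl24 differed by -0.10 (SE 0.0542). Because processed pseudogenes copy most ribosomal protein genes almost exactly, values of single members are uncertain. The list median was 0.54 in wild types, 0.22 in heterozygotes and 0.16 in males.

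Small nucleolar and Cajal body RNAs guide the chemical modification of ribosomal and spliceosomal RNA. Of 173 symbols 14 could be tested, and 80 had no count in any animal. Scarna10 was at 15.9 to 33.2 CPM against 5.74 to 11.4 CPM, a log2 difference of 1.38 (SE 0.193). The entry SNORD73 was at 6.87 to 11.9 CPM against 3.26 to 4.78 CPM (1.13), while Snord17 stood lower, at 1.68 to 5.01 CPM against 5.08 to 12.3 CPM, a difference of -1.24 (SE 0.251). Each of these 3 pairs of ranges was apart, as was required of genes named for the set difference. The list had 4 members higher and 3 lower, and a median of 0.11 that was -0.02 in heterozygotes. Small nucleolar RNAs often lie inside introns of host genes, so reads can also come from those genes. Of 25 genes of the spliceosome and RNA processing, 12 were higher and 1 lower (median 0.14), led by the splicing kinase genes Clk1 (0.52) and Clk4 (0.45) and the splicing factor gene Tra2a (0.45). Their median GC content was 42.8%, and all genes in the GC decile that holds this value had a median log2 difference of 0.14. With the GC trend removed the list median was 0.085, and Clk1 and Clk4 were not called.

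Astrocyte markers were higher in the 119/141 animals, and markers of the other glia were so in part or not at all. Of 22 astrocyte markers 20 were higher and 0 lower, with a median log2 difference of 0.39. Their summed level was 17106 to 24221 CPM against 13398 to 15122 CPM, with no overlap. Gjb6, a gap junction protein of astrocytes, ran from 64.5 to 91.7 CPM (median 80.7) in the 119/141 animals and from 42.5 to 56.1 CPM (median 49.0) in the others, a difference of 0.66 (SE 0.0700). S100b, a calcium-binding protein, was at 93.1 to 154 CPM against 66.5 to 84.5 CPM (0.68). The water channel gene Aqp4 differed by 0.64 (SE 0.0848), with ranges of 173 to 289 CPM against 127 to 186 CPM that overlapped. Hes5, a Notch target, was the 1 marker with a negative value (-0.28). The astrocyte median was 0.57 in wild types and 0.18 in heterozygotes, and 0.49 in females and 0.25 in males.

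Oligodendrocyte markers, the genes of myelin and its formation, were less uniform. Of 20, 9 were higher and 2 lower, with a median of 0.16 that was 0.078 in wild types, 0.041 in males, 0.036 without prefix 141 and 0.048 with the GC trend removed. Mobp, a myelin protein gene, ran from 539.5 to 945 CPM (median 689.6) in the 119/141 animals and from 311 to 522 CPM (median 372) in the others, a log2 difference of 0.88 (SE 0.142) without overlap. Mbp, the myelin basic protein gene, differed by 0.71 with overlapping ranges. Fa2h, an enzyme of myelin lipid synthesis, was lower (-0.24). Sox10, the transcription factor of the lineage, was lower without overlap, at 20.7 to 31.9 CPM against 33.8 to 44.3 CPM (-0.47 (SE 0.0727)). The 12 precursor markers had 2 higher and 2 lower, and a median of 0.02 that was negative in wild types (-0.11), with sex as a term, without prefix 141 and without either of 2 single heterozygous animals (046-2 and 141-4).

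Microglia markers had 11 of 20 higher and 0 lower, with a median of 0.22 and summed levels of 555 to 718 CPM against 462 to 613 CPM. Gpr34, a receptor gene of homeostatic microglia, was at 13.8 to 22.3 CPM against 10.9 to 14.1 CPM (0.57 (SE 0.0883)). Siglech differed by 0.55 and Ly86 by 0.53, and Trem2, a lipid-sensing receptor, by -0.04. Markers of border macrophages, the resident macrophages of the meninges and vessels, had 0 of 5 higher and 0 lower. Endothelial markers had 5 of 17 higher and 0 lower (median 0.18), led by Itm2a (0.43) and the lipid transporter gene Mfsd2a (0.38). Pericyte and smooth muscle markers were split, with Rgs5 at 0.46 and Vtn at -0.39, and their median near 0 changed sign with DESeq2 size factors, in males and in heterozygotes. Hemoglobin genes, a sign of blood, took 0.00543% to 0.0104% of counts in the 119/141 animals and 0.00481% to 0.0119% in the others.

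Markers of the meninges and fibroblasts were lower. Of 19, 12 were lower and 1 higher, with a median of -0.35 and summed levels of 315 to 479 CPM against 384 to 564 CPM. The transporter genes Slc13a4 (-0.65), Slc6a13 (-0.62) and Slc22a6 (-0.51), known from the leptomeninges, led, each with overlapping ranges. The median was -0.25 in wild types and -0.49 in heterozygotes. These are differences between the sets on average, since the summed meningeal levels overlapped.

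Neuronal markers were lower by a smaller amount. Of 13 pan-neuronal markers 8 were lower and 1 higher (median -0.24), and their sum was 5541 to 7698 CPM against 7313 to 7986 CPM. Eno2, the neuronal enolase, ran from 423 to 662 CPM (median 561) in the 119/141 animals and from 754 to 839.9 CPM (median 771) in the others, a log2 difference of -0.51 (SE 0.0730). Tubb3, the neuronal tubulin, differed by -0.50 (SE 0.0644). Neither gene overlapped between the sets. Gap43, a growth cone protein, was higher, by 0.19. Without prefix 141 the pan-neuronal median was -0.09, and in males -0.08.

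Markers of each cortical neuron class examined had a negative median. Deep-layer markers had 8 of 17 lower and 0 higher (median -0.22), among them Ntsr1 of layer 6 neurons (8.79 to 12.7 CPM against 13.1 to 19.7 CPM) and Ctgf of the subplate (-0.40). Upper-layer markers had 5 of 13 lower and 1 higher (median -0.19), with the cadherin gene Cdh13 at -0.46 and the transcription factor gene Lhx2 at 0.20. The upper-layer median was -0.077 in heterozygotes, -0.060 in males and -0.086 without prefix 141, and the deep-layer median was -0.12 in males and -0.12 without prefix 141. Interneuron markers had 6 of 20 lower and 1 higher (median -0.17, -0.11 in males and -0.10 with the GC trend removed). Slc32a1, the vesicular transporter of inhibitory transmitters, was at 64.4 to 91.8 CPM against 98.7 to 139 CPM (-0.66 (SE 0.0758)), and its ranges were apart. Gad1, which makes GABA, differed by -0.34, and Pvalb, the marker of fast-spiking cells, was higher by 0.29.

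Genes of neuronal signalling were lower in part. Of 33 potassium, sodium and calcium channel genes 24 were lower and 1 higher (median -0.24). The potassium channel gene Kcnc1 was at 201 to 265 CPM against 278 to 345 CPM, the calcium channel gene Cacna1b differed by -0.41 (SE 0.0692), and Kcnn2 was the 1 higher (0.28). Presynaptic release genes had 12 of 25 lower and 3 higher (median -0.16). Sv2a, a synaptic vesicle glycoprotein, was at 305 to 479.7 CPM against 523 to 642 CPM (-0.57 (SE 0.0776)), and Unc13c, a vesicle priming factor, was higher by 0.63.

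Postsynaptic genes were divided, with 10 of 28 higher and 7 lower. Their median of -0.02 was positive in heterozygotes (0.01), in males and without prefix 141. Grin1, the obligatory NMDA receptor subunit, had a median of 426 CPM in the 119/141 animals and 591 CPM in the others (-0.52 (SE 0.0705)). Grm2, a glutamate receptor that dampens transmitter release, was at 51.6 to 64.9 CPM against 81.2 to 97.9 CPM (-0.59 (SE 0.0540)). Homer2, a scaffold protein, was the other way, at 186 to 317 CPM against 145 to 168 CPM (0.66 (SE 0.0719)). The ranges of all 3 genes were apart.

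Markers of neighbouring brain regions were examined because a piece of cortex can carry other tissue. Striatal markers had 3 of 16 lower, beside 19.1% of all genes tested, 0 higher and a median of -0.48. Their summed levels in the 119/141 animals lay within those of the others (679 to 1031 CPM against 578 to 1494 CPM). Adora2a, a receptor gene of striatal projection neurons, was at 8.58 to 20.9 CPM against 6.23 to 52.9 CPM, and Penk, a neuropeptide precursor, at 33.5 to 71.9 CPM against 31.1 to 129.7 CPM. Neither was called, and the wider spread lay in the other set. Thalamic and habenular markers had 4 of 11 higher and 1 lower (median 0.12), with the transcription factor gene Tcf7l2 at 9.04 to 13.6 CPM against 5.55 to 8.95 CPM. Hippocampal (-0.10), olfactory (-0.08) and hypothalamic (-0.23) lists had small negative medians. The claustral median was 0.02 and was negative in each sex alone, in heterozygotes, without either prefix of the 119/141 set and with the GC trend removed (-0.093). That of the 7 choroid plexus markers (-0.15) was positive within each genotype, where fewer of them were tested. In wild types 4 were positive and 2 negative, and in heterozygotes 3 and 2. Zbtb20, a transcription factor gene in the hippocampal list, was higher without overlap, at 67.5 to 105 CPM against 50.2 to 65.0 CPM.

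Immediate early genes were lower in the 119/141 animals. These genes, many of them targets of the activity-regulated factor CREB, include transcription factors and feedback regulators of signalling. Of 28, 16 were lower and 0 higher, with a median log2 difference of -0.44. Egr4, a zinc finger transcription factor, Junb, a subunit of AP-1, and Dusp1, a phosphatase that switches off MAP kinases, were the members whose ranges did not overlap. They were 3 of the 28, and ranges did not overlap in 11.7% of all genes tested, so this separation is not particular to the list. To show the control regions of members with a shared direction, the 250 bases before the start of each of these 3 genes are printed here from RefSeq (GRCm38.p6), 5′ to 3′ on the gene's own strand, which is the minus strand in each. They were matched by symbol, since the counts are on another build, and lie at chr6:85513590-85513839 (Egr4), chr8:84978749-84978998 (Junb) and chr17:26508473-26508722 (Dusp1). Capitals mark TGACG and its reverse complement CGTCA, the core of the cyclic AMP response element bound by CREB, searched on both strands. Where both overlap, as in Dusp1, they form the complete element TGACGTCA.
Egr4: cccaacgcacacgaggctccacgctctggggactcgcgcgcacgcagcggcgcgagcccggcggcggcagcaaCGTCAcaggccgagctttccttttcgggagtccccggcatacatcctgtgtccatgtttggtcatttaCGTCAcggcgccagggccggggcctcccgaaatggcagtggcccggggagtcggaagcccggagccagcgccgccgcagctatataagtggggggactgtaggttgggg
Junb: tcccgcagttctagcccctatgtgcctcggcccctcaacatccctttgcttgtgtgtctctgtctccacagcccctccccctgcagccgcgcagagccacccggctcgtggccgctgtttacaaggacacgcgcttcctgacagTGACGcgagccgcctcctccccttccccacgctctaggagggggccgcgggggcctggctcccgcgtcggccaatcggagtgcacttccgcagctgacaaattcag
Dusp1: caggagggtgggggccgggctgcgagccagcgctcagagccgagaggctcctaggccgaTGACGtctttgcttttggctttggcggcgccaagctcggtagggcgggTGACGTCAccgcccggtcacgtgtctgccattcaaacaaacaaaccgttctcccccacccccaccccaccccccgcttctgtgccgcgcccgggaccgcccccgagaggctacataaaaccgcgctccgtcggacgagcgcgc

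The core was found in 13 of the 21 immediate early gene promoters examined, and in 17.8% of 32851 promoter windows of the same length. The complete element was found in 2 of the 21 (Dusp1 and Btg2) and in 1.55% of all windows. A match describes letters only.

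Egr4 ran from 23.6 to 50.3 CPM (median 35.8) in the 119/141 animals and from 60.9 to 95.7 CPM (median 80.9) in the others, a log2 difference of -1.15 (SE 0.163). Junb ran from 31.1 to 74.0 CPM (median 55.3) in the 119/141 animals and from 83.1 to 153 CPM (median 106) in the others, a difference of -1.11 (SE 0.188). Dusp1 ran from 25.6 to 41.7 CPM (median 36.8) in the 119/141 animals and from 42.1 to 77.6 CPM (median 54.1) in the others, a difference of -0.70 (SE 0.146). In each of these the 2 animals of prefix 119 had the lowest values of all 14. Npas4, an activity-induced transcription factor, had the largest difference of the list (-1.45 (SE 0.275)), with ranges of 7.17 to 17.3 CPM against 15.8 to 45.5 CPM that overlapped. Fos, the partner of Junb in AP-1, was at 8.37 to 42.3 CPM against 41.8 to 88.5 CPM (-1.11). Homer1, whose short form is induced by activity, differed by 0.15. The list median was -0.53 in wild types, -0.51 in heterozygotes, -0.38 in females and -0.84 in males. Prefix 119 without prefix 141 gave -1.03.

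Other genes with lower levels and no overlap were Ier5l, a relative of an immediate early gene (11.1 to 19.0 CPM against 20.1 to 29.4 CPM), and Cebpb, a transcription factor of inflammatory and metabolic genes (4.70 to 7.86 CPM against 9.42 to 13.3 CPM). Rtn4rl2, a receptor of the Nogo receptor family, ran from 21.9 to 27.6 CPM (median 24.1) in the 119/141 animals and from 38.2 to 45.4 CPM (median 40.3) in the others, a log2 difference of -0.73 (SE 0.0616), the smallest SE of the 20 genes named for the set difference. Cecr6 (-0.74), the heat shock transcription factor gene Hsf4 (-0.71) and Fam43b (-0.71) completed the 10 genes with the largest negative differences among called genes with separate ranges and a mean count of 50 or more.

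**Figure D3:**
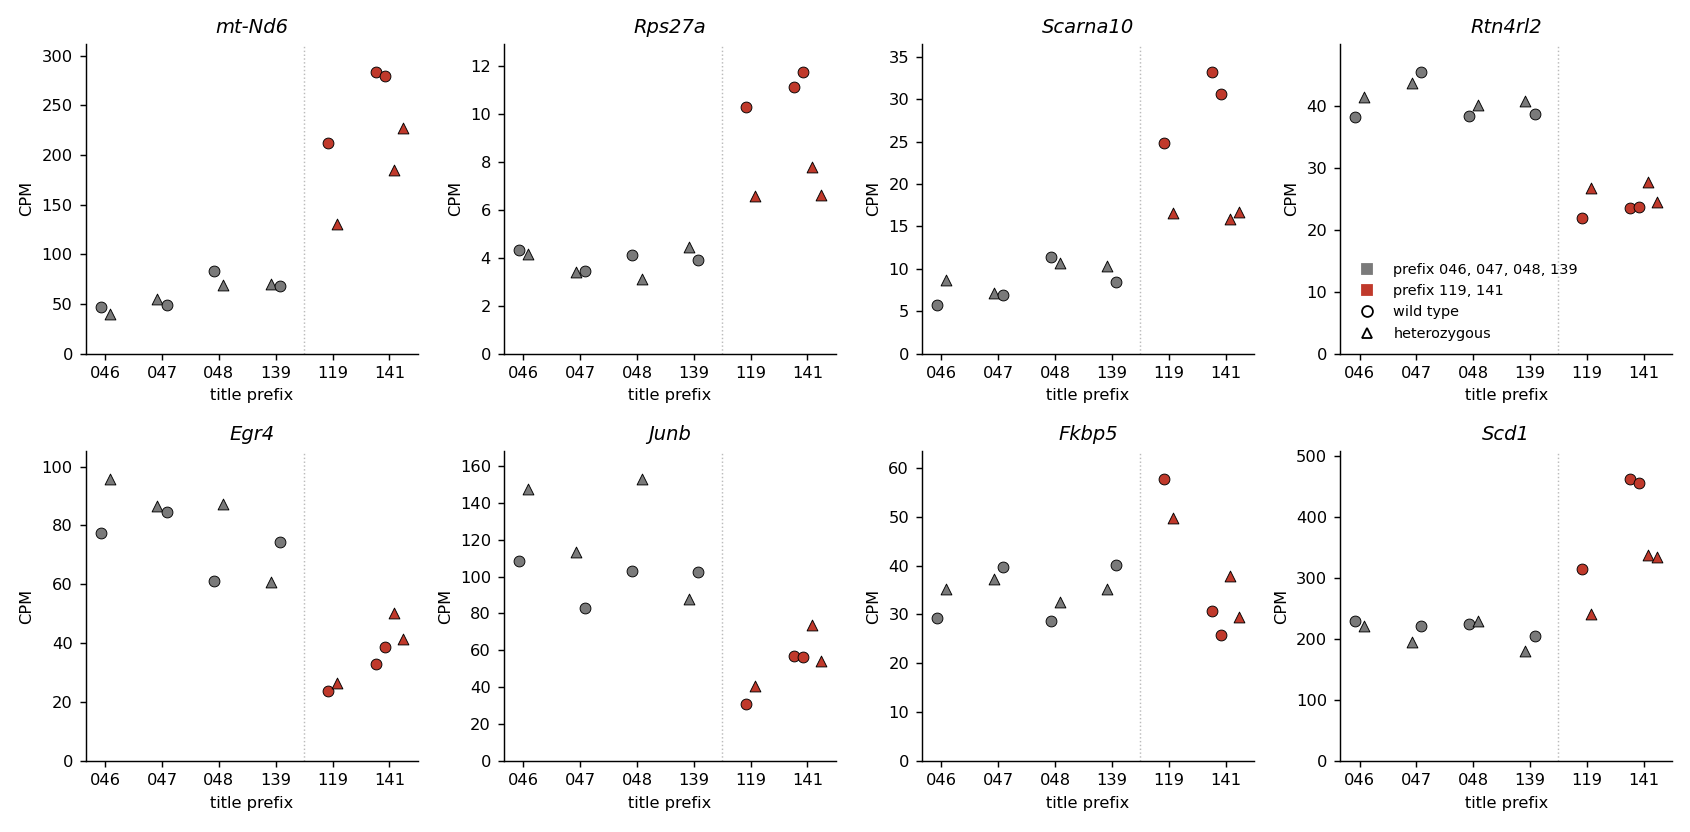
CPM of 8 named genes in each animal by title prefix (1 point per animal, circles wild type, triangles heterozygous, red prefixes 119 and 141). mt-Nd6, Rps27a and Scarna10 are higher in all 6 animals of prefixes 119 and 141 than in any other. Rtn4rl2, Egr4 and Junb are lower in the same way. Separate ranges were required for naming these genes. Fkbp5 is highest in the 2 animals of prefix 119 (49.8 and 57.7 CPM), and Scd1 is highest in prefix 141.

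Lists tied to time of day and to stress were mixed. Their counts stand beside 19.5% higher and 19.1% lower over all genes tested. Clock genes had 5 of 17 lower and 3 higher (median -0.19). Nr1d1, a repressor of the clock, was at 89.5 to 108 CPM against 120.3 to 141 CPM (-0.38 (SE 0.0491)), while its relative Nr1d2 was higher by 0.28. Glucocorticoid targets had 3 of 15 higher and 0 lower (median 0.16, -0.01 in females), with the sulfotransferase gene Sult1a1 at 0.76 and the metabolic kinase gene Pdk4 at 0.63. Heat shock and chaperone genes had 3 of 20 higher and 4 lower, and a median of 0.02 that was negative in females and in wild types. Genes of hypoxia and glycolysis had 7 of 17 lower and 3 higher (median -0.11, 0.02 in males). The glycolytic genes Aldoa (-0.40), Pfkl (-0.36) and Tpi1 (-0.35) were lower and Hk2 (0.34) higher, each without overlap. Cholesterol synthesis genes had 6 of 18 lower and 4 higher (median -0.06), and Cyp51, a demethylase of sterol synthesis, was at 0.31.

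In the remaining lists, long noncoding nuclear RNAs had 4 of 10 higher (median 0.30), among them Rmst (13.1 to 21.9 CPM against 8.72 to 10.9 CPM). Their median was negative in males and without prefix 141. Malat1, an abundant nuclear RNA, took 0.262% to 0.604% of counts against 0.231% to 0.394%, with prefix 119 at a mean of 0.283% and prefix 141 at 0.492%. Writers, erasers and readers of DNA methylation had 3 of 18 higher and 2 lower (median -0.03), with Gadd45b, a factor linked to demethylation, at -0.58, the maintenance methyltransferase gene Dnmt1 at -0.21 and Mbd2, a reader of methylated DNA, at 0.22 (-0.03 in males). Interferon response genes had 1 of 16 higher and 1 lower, and replication-dependent histone genes 4 of 54 higher and 9 lower. Over all genes tested, 19.5% were higher and 19.1% lower. Of the microRNA entries 9 of 534 could be tested and 1 was higher, mmu-mir-703 (44.5 to 58.0 CPM against 27.1 to 34.4 CPM).

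The difference between the sets also followed the GC content of genes, taken from the GENCODE M21 transcripts for 13999 of the 14241 genes. The median log2 difference was 0.23 in the decile of lowest GC content and -0.20 in the highest, with 86.9% and 20.3% of genes positive. Across genes, Spearman's rho with GC content was -0.488 (-0.335 in wild types, -0.601 in heterozygotes). With transcript length it was -0.0435 (-0.104 in wild types, 0.0442 in heterozygotes). GC content and length themselves had a rho of -0.264. Taken animal by animal, the median deviation in the lowest decile minus that in the highest lay between 0.35 and 0.49 in the 6 animals and between -0.18 and 0.10 in the other 8. The sets did not overlap. In this measure prefix 119 (0.35 and 0.41) lay beside prefix 141 (0.41 to 0.49), whereas on PC1 it lay between prefix 141 and the other set.

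**Figure D4:**
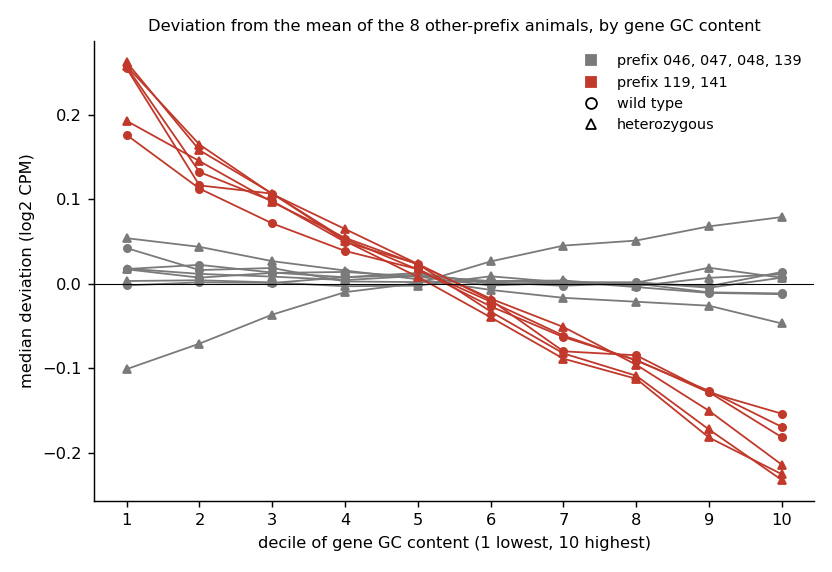
Median deviation of log2 CPM from the mean of the 8 animals of the other prefixes, for genes in 10 classes of GC content, with 1 line per animal. The 6 red lines of prefixes 119 and 141 run downward from the lowest to the highest class, by 0.35 to 0.49, and the 8 grey lines differ by -0.18 to 0.10.

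With the GC trend of each animal removed, an alternative chosen after the data were seen, 4123 of 13999 genes were called in place of 5497. The astrocyte median was then 0.44, that of mitochondrial messages 0.95, that of ribosomal proteins 0.36 and the immediate early gene median -0.41. Single members kept their direction, with Egr4 at -0.85, Junb at -0.89, mt-Nd6 at 1.51 and Gjb6 at 0.65. Among genes named above, Clk1, Clk4, Fa2h, Dnmt1 and Nr1d2 were no longer past the threshold. With the trend removed, Spearman's rho of the set difference with transcript length was -0.203. The median log2 difference was then 0.14 in the decile of shortest transcripts and -0.068 in that of the longest. The relation of the GC trend or of length to library preparation was not tested.

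Within wild type alone, whose animals also entered the comparison above, genes with the largest differences and separate ranges were named. The higher ones included mitochondrial and small RNA entries, and the lower ones messenger RNAs of nuclear genes. mt-Nd6 was at 212, 279.5 and 283 CPM in the 3 wild types of prefixes 119 and 141 and at 46.6, 48.6, 68.4 and 83.5 CPM in the other 4, a log2 difference of 2.06. Scarna10 was at 24.8, 30.6 and 33.2 CPM against 5.74, 6.85, 8.41 and 11.4 CPM (1.87, and 0.82 in heterozygotes). Egr4 was at 23.6, 33.0 and 38.6 CPM against 61.1, 74.4, 77.4 and 84.4 CPM (-1.25). Separate wild-type ranges were required for naming all 3, and 33.7% of the 14241 genes had them. Chac1, an enzyme that degrades glutathione, was at 2.96, 3.81 and 4.10 CPM against 7.36, 8.09, 8.39 and 8.48 CPM in wild types (-1.15), while in heterozygotes the difference was 0.15. Rnf39, a ring finger protein gene, followed at -0.91 and -0.27.

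Whether the difference between the sets depended on genotype was tested with an interaction term. The sets were not divided by genotype, but the term was not free of the choice of prefixes. On PC1 wild types lay above heterozygotes in prefix 141 (32.9 and 34.9 against 12.7 and 17.1) and in prefix 119 (8.55 against -0.23). The p-values below carry this limit. Of 14241 genes 0 passed by edgeR's quasi-likelihood test (0.0%), while 1825 had an unadjusted p below 0.05. DESeq2 called 117 higher and 85 lower. The smallest adjusted p by edgeR was 0.0733, shared by genes that included Adar, Tspyl5, Asns, Maz, Fbxo2 and Palm. Title prefix, which holds both genotypes, was then entered as a block in place of the set, an alternative chosen after the data were seen. Each wild type was correlated with each heterozygote in its deviations from the mean of its set and genotype. The r across genes was 0.13 to 0.47 within a prefix and -0.32 to 0.11 between prefixes. Between prefixes of the same sex in the other set it was -0.01 to 0.11. Deviations in a set and genotype sum to 0, so values within and between prefixes are not independent and their contrast is partly built in. With this block edgeR called 376 genes higher (2.64%) and 373 lower (2.62%), with a smallest adjusted p of 0.000575. Without single animals the blocked counts were 62 to 664 higher and 106 to 499 lower, the fewest higher without 141-1 and the fewest lower without 141-4. A count fell by more than 1.5 times without 046-1, 046-2, 047-2, 141-1, 141-2, 141-3 or 141-4 and rose by as much without 048-2 or 048-3. Each of the 6 genes just named passed with the block. The number of calls thus depended on the block. Without the block the count depended most on the wild-type male of prefix 119. Without this animal edgeR called 512 genes higher and 408 lower. Without the wild-type male of prefix 048 it called 20 and 39, and without any other single animal at most 6 higher and 7 lower.

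Adar, an enzyme that edits adenosine in RNA, shows the values behind such a term. It lay at 135, 164 and 169 CPM in wild-type and 192, 206 and 226 CPM in heterozygous 119/141 animals, and at 200.1 to 263 CPM in the other 8, an interaction of 0.59 (SE 0.117). Tspyl5 (0.54) and Asns, which makes asparagine (0.61), had the same sign. Palm, a protein of the neuronal membrane, had the opposite one, with 299, 331 and 353 CPM in wild-type and 223, 234 and 252 CPM in heterozygous 119/141 animals against 230.4 to 262 CPM (-0.50, SE 0.0992). In both genes the wild types of prefixes 119 and 141 lay outside the range of all other animals.

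The dependence on sex, which in the 119/141 set is also that on prefix, was tested likewise. Prefixes 119 and 141 also lay apart on PC1, so this term too was not free of the choice of prefixes. The fit took animals of a prefix as independent, and each sex of the 119/141 set is 1 prefix. Its p-values therefore do not measure the spread between prefixes. The male minus female value was positive for 10 genes (0.0702%) and negative for 33 (0.232%) at an adjusted p under 0.05 by edgeR, and DESeq2 called 56 and 65. Single animals moved these counts. They were 1 and 0 without the heterozygous male of prefix 119, 2 and 2 without its wild-type male, and 63 and 84 without 1 heterozygous female of prefix 141 (141-4). They were at most 2 in a direction without 048-3 or 141-2 and also lower without 139-3, 047-2, 046-2 or 141-1, and higher without 046-1 (32 and 61) or 139-2 (34 and 60). Fkbp5, a glucocorticoid-induced chaperone of the steroid receptor, had the smallest p and passed under each alternative tried. It was at 49.8 and 57.7 CPM in the 2 animals of prefix 119, at 25.7 to 37.8 CPM in the 4 of prefix 141 and at 28.7 to 40.1 CPM in the other 8. The male minus female value was 1.08 (SE 0.148, adjusted p = 0.00162 by edgeR). Prefix 119 thus stood above every other animal.

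Calr, a chaperone of the endoplasmic reticulum, was at 288 and 299.7 CPM in prefix 119 and 202 to 241 CPM in prefix 141 (0.57, SE 0.103, adjusted p = 0.0179 by edgeR). Sulf2, an enzyme that trims heparan sulfate, had a value of 0.51. In the other direction, the set difference of Junb was -1.83 in males and -0.68 in females, a difference of -1.15 (SE 0.172, adjusted p = 0.0133 by edgeR). It was at 31.1 and 40.3 CPM in prefix 119 and at 54.4 to 74.0 CPM in prefix 141. Without either animal of prefix 119 it no longer passed. Of the 28 immediate early genes 4 passed this test. Besides Junb these were Fos (-2.02), Egr2 (-2.74) and Nptx2 (0.61), named here after their values were seen. Scd1, a fatty acid desaturase, was at 241 and 315 CPM in prefix 119 and 334 to 462 CPM in prefix 141, against 179.9 to 229.6 CPM in the others (-0.70, SE 0.119). Tnc, a matrix protein, had -1.36 (SE 0.230).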

How the data were processed

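The deposited table holds raw counts per gene symbol for 14 cortex libraries, 1 per mouse, together with columns in which the authors compared the genotypes. Per the submitters' processing notes, Trim Galore, STAR, Bowtie and bedtools and the mm9 build were used, with no versions or roles given, and the sources used here do not say whether counting used strand. The authors' deposited log2 fold changes, their test score and their p-values were not used to describe the sets. The authors' deposited log2 fold changes were only compared with DESeq2 fits, which differed from them by at most 1.98e-08 over 19653 genes with terms for sex and set, and by up to 0.127 with sex alone.

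Of 34193 symbols 14540 had no count. Library totals ran from 8951835 to 14335406. Counts were fitted with edgeR 4.0.16 (limma 3.58.1, R 4.3.3): filterByExpr over set and genotype, TMM factors, robust quasi-likelihood fits, genotype as a term, and Benjamini-Hochberg adjustment at 0.05. Shares use all counts of a library. CPM values are instead scaled to the library's total over the genes kept by the filter, adjusted by its TMM factor. The same was done within each genotype, and products of set with genotype and with sex were tested. The script was tested on simulated data. Alternatives were DESeq2 1.42.0, its size factors, other filters, sex as a term, other library totals, each sex, prefix or genotype alone, each animal left out, removal of each animal's GC trend (lowess, span 0.3) and title prefix as a block, the last 2 added after the data were seen. Animals of a prefix also share their sex, and the labels do not say what a prefix marks, so the pairing comes from the correlation of their deviations.

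Named genes were, per direction, the 10 with the largest set difference (5 within wild type) among called genes with a mean count of 50 or more, ranges that did not overlap and a symbol that is no predicted model. For each interaction they were the 3 per direction with the smallest p and a mean count of 20 or more. In each list they were the 3 members furthest in the direction of the median and the 1 furthest against it. The prefixes and the lists, of general markers and pathways, were chosen with earlier results of these data known. Lists can share members, as the immediate early and DNA methylation lists share Gadd45b. The pan-neuronal and presynaptic medians were equal without prefix 141 and in males. Lists are therefore not separate observations. Promoters come from RefSeq (GRCm38.p6) and GC content from GENCODE M21, both matched by symbol and neither on the build of the counts.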

Additional observations from a re-analysis of the deposited data

Results flagged for a closer look

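Of 162 groups of values examined, 4 had 1 animal far from the others of its set, and chance alone flags about 1 in 20 such groups. All 4 lay in the set of prefixes 046, 047, 048 and 139. The wild-type male 048-2 had the highest share of counts on hemoglobin genes, 0.0119% against 0.00753% in the next animal, and the highest mean log2 CPM of the blood list, 4.01 against 3.27. The heterozygous female 047-1 had the lowest mean log2 CPM of the olfactory list, 3.45 against 3.62. The wild-type male 046-1 had the highest level of Tspyl5, a gene of the genotype-by-set comparison, at 93.1 CPM against 87.2 CPM.

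In 6 named genes the difference between the sets was not the same in males and females by the interaction test, with adjusted p-values from edgeR over all genes. The male minus female value was 1.08 for Fkbp5 (adjusted p = 0.00162), 0.57 for Calr (0.0179) and 0.51 for Sulf2 (0.0289). It was -1.15 for Junb, -1.36 for Tnc and -0.70 for Scd1 (adjusted p = 0.0133 each). In the 119/141 set males are prefix 119 and females prefix 141, so these values cannot be assigned to sex. The p-values take animals of a prefix as independent and do not measure the spread between prefixes.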

How the results depend on the processing

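Several counts of genes depended on the setting. The set difference called 816 higher and 843 lower without prefix 141. The difference within heterozygotes called 425 higher and 349 lower with the GC trend removed. The genotype-by-set term called 117 higher and 85 lower by DESeq2, 9 higher and 14 lower with no filter on low counts, 376 higher and 373 lower with title prefix as a block, 453 higher and 292 lower with that block and the GC trend removed and 7 higher and 10 lower with sex as a term. The sex-by-set term called 56 higher and 65 lower by DESeq2, 16 higher with the GC trend removed and 87 higher and 194 lower with no filter on low counts. With single animals left out, the difference within wild types called 1174 to 2479 higher and 1114 to 2693 lower. The difference within heterozygotes called 690 to 1425 higher and 770 to 1409 lower. The genotype-by-set term called 0 to 512 higher and 0 to 408 lower. The sex-by-set term called 1 to 63 higher and 0 to 84 lower. List medians ran from -0.20 to -0.12 for upper-layer neurons, -0.21 to -0.10 for hippocampus, 0.077 to 0.24 for thalamus and -0.027 to 0.19 for microRNA hosts and precursors. The highest counts of the genotype-by-set term without the block came without 119-1 and those of the sex-by-set term without 141-4. Without prefix 141, the list medians were -0.089 for pan-neuronal, -0.086 for upper-layer neurons, 0.24 for thalamus, -1.03 for immediate early genes, -0.35 for circadian clock, 0.17 for heat shock and chaperones, -0.14 for long noncoding RNAs, -0.089 for presynaptic release, -0.11 for DNA methylation genes and -0.15 for interferon response. In males only, the list medians were -0.27 for pericytes, -0.083 for pan-neuronal, -0.060 for upper-layer neurons, -0.11 for interneurons, 0.21 for thalamus, -0.84 for immediate early genes, -0.30 for circadian clock, 0.24 for heat shock and chaperones, 0.024 for hypoxia and glycolysis, -0.15 for cholesterol synthesis, 0.93 for mitochondrial messages, 0.16 for ribosomal proteins, -0.073 for long noncoding RNAs, -0.083 for presynaptic release, 0.022 for postsynaptic genes, -0.14 for DNA methylation genes and -0.14 for interferon response. In females only, the list medians were 0.30 for border macrophages, -0.23 for interneurons, 0.20 for thalamus, -0.20 for hypoxia and glycolysis and -0.068 for postsynaptic genes. In wild types only, over the genes tested there, the list medians were 0.57 for astrocytes, -0.11 for oligodendrocyte precursors, 0.28 for border macrophages, -0.13 for upper-layer neurons, -0.21 for hippocampus, -0.21 for hypoxia and glycolysis, 0.34 for oxidative phosphorylation, 0.39 for small nucleolar RNAs, -0.074 for postsynaptic genes and -0.38 for channels. In heterozygotes only, the list medians were 0.18 for astrocytes, 0.13 for ependymal cells, -0.077 for upper-layer neurons, 0.057 for oxidative phosphorylation and 0.22 for ribosomal proteins. With the GC trend removed, the list medians were -0.10 for interneurons, -0.093 for claustrum, 0.37 for small nucleolar RNAs and -0.053 for postsynaptic genes. Without prefix 119, the list medians were -0.26 for interneurons and 0.19 for thalamus. With a mean count of 50 or more, the list median was 0.20 for thalamus. Some of these medians cover another number of genes than the main fit. With the GC trend removed, 8 in place of 14 small nucleolar RNAs entered. In heterozygotes, 3 in place of 5 ependymal markers did. Such shifts can come from the change of genes alone, and the cause of the others was not tested. Over all alternatives, 1013 list medians moved by less than the spread between animals, 42 of them across 0, and 61 by more. Of the counts of genes, 124 stayed within 1.5 times the reported count and 86 did not. Of the named genes 3990 values kept their call, 279 lost it, 184 gained one and 1 called value changed sign, Mbd2 in males (-0.028). The block by title prefix was run for the genotype-by-set term alone, where leaving out single animals gave 62 to 664 higher and 106 to 499 lower. No paired analysis was possible for the other comparisons because no title prefix holds animals of both sets or both sexes. Depth was alike between sets, and genes below the filter were not described.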
